A study of Zea mays with 7 samples.

Results

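At 2004 sites of the maize genome, an H3K9ac-enriched region was present in husk and in V2-IST and reached further in husk, almost entirely at one of its ends. H3K9ac was mapped by ChIP-seq in soft inner husk leaves, taken from ears with emerging silks before pollination (3 replicates), and in V2-IST (2 replicates). V2-IST, or inner stem tissue, is the stem of seedlings at the V2 leaf stage without its outer leaves and exposed leaf blades. All plants belonged to the inbred line B73 and were grown in a greenhouse. Each ChIP-seq library was made from pooled ChIP samples, and input chromatin of the same tissue served as control (1 labelled input sample per tissue). The paper calls the replicates biological, and the labels do not say whether they came from separate plants. The deposited data are 1 list of regions per tissue on the AGPv4 genome, 28004 regions in husk and 17170 in V2-IST, with start and end but no signal, read count or replicate, so that the depth behind a region is unknown and tissue markers could not be checked. Husk and V2-IST differ in organ and in developmental stage, which cannot be told apart.

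Acetylation of histone H3 at lysine 9 is set by histone acetyltransferases that are recruited by transcription factors, and it opens nucleosomes to the transcription machinery. In plants, the mark is concentrated on the nucleosomes just downstream of the transcription start site (TSS) of active genes, and it also occurs at active enhancers. A region of H3K9ac at a promoter is therefore polar: its upstream end lies near the nucleosome-depleted promoter and its downstream end lies within the gene. The lists hold no strand or gene names.

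The sites were chosen from 15878 one-to-one pairs, in which 1 husk region and 1 V2-IST region overlapped each other by at least 1 bp and no other region. The V2-IST region had to lie inside the husk region and to be shorter than 1500 bp, the husk region had to measure 600 bp or more, and the ratio of husk to V2-IST length had to be 1.5 or more and under 2.5. At least 80% of the extra husk length had to lie at one end, called the extended side here, the other end being the retained side. The V2-IST region lay inside the husk region in 90.1% of the one-to-one pairs, and all conditions were met by 12.6%. Among the 5863 pairs that met the conditions on length, ratio and position, 34.2% were extended to one side, and the other 3859 were extended to both sides. Sites extended to both sides serve for comparison. Lengths, ratios and sidedness chose the sites, so that their values are given as a description.

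At the sites extended to one side, husk regions had a median length of 1164 bp (quartiles 931 and 1596 bp) and V2-IST regions of 619.5 bp (quartiles 490 and 844 bp). The median length ratio was 1.88. The extended side carried a median of 478 bp of extra husk sequence (quartiles 351 and 674 bp, range 163 to 2059 bp), while the retained side carried 67 bp (quartiles 45 and 93 bp, range 0 to 325 bp). Retained ends of the 2 lists lay within 100 bp of each other at 79.4% of the sites and within 150 bp at 1904 of 2004. At 7 sites they were identical. As follows from lengthening at one end, the centre of the husk region lay a median of 202 bp (quartiles 146.5 and 296 bp) from that of the V2-IST region. At sites extended to both sides, the larger side carried a median of 264 bp, the smaller one 132 bp, and the centres were 65.5 bp apart. Regions at those sites were shorter, with a median length of 901 bp in husk and 509 bp in V2-IST.

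**Figure D1:**
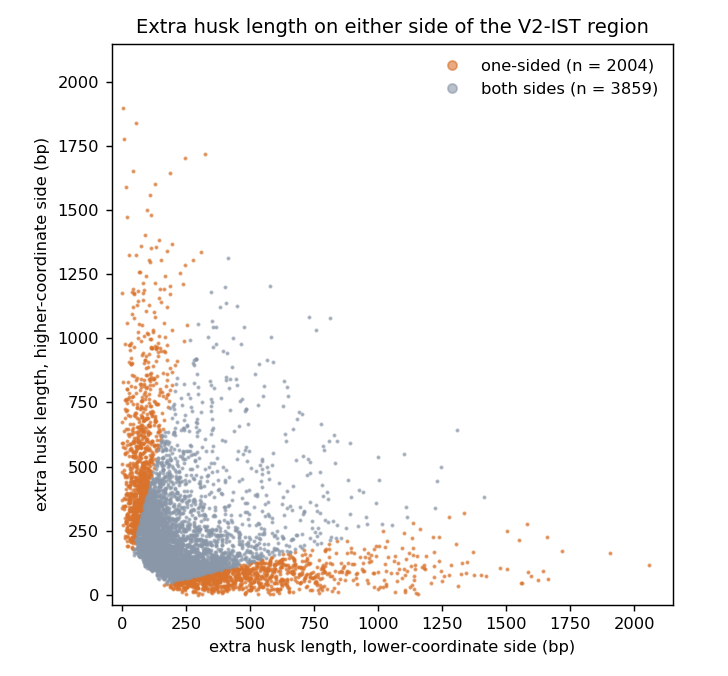
Extra husk length in bp beyond the lower-coordinate end (x axis) and beyond the higher-coordinate end (y axis) of the V2-IST region. Each point is 1 site. The 2004 sites extended to one side lie along the axes, with at most 325 bp on the retained side, and the 3859 sites extended to both sides lie between them.

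The extension was under 300 bp at 291 sites (14.5%), 300 to under 500 bp at 780 (38.9%), 500 to under 1000 bp at 765 (38.2%) and 1000 bp or more at 168 (8.38%). It was longer where the V2-IST region was longer, with a median of 346 bp for V2-IST regions under 500 bp (n = 553) and of 932.5 bp for those of 1000 bp or more (n = 306), within the bounds that the length ratio sets. Summed over the sites, husk regions covered 2647792 bp and V2-IST regions 1388001 bp. Of the extra husk length, 1112562 bp lay on the extended side and 147229 bp on the retained side.

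**Figure D2:**
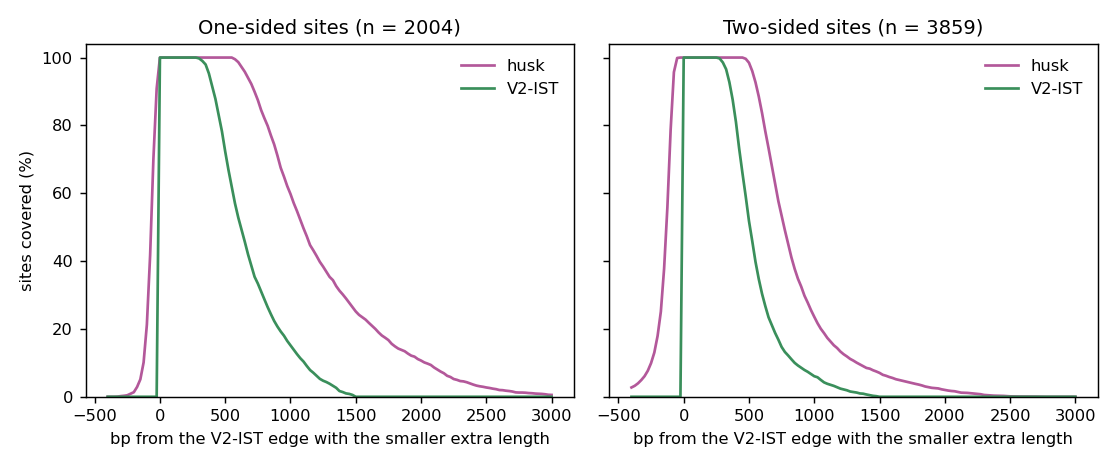
Share of sites (%) covered by a husk or V2-IST region, by distance in bp from the V2-IST edge with the smaller extra length, with the larger extra length to the right. At 1000 bp from this edge, husk regions covered 59.8% and V2-IST regions 15.2% of the sites extended to one side, against 23.6% and 6.06% of the sites extended to both sides. Sites extended to both sides had shorter regions in both tissues, which lowers their coverage at this distance.

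The limit on sidedness divided a continuous range. Among the 5863 pairs, the share of the extra length on the larger side was 50 to under 60% in 1130 pairs, 60 to under 70% in 1216, 70 to under 80% in 1513, 80 to under 90% in 1365 and 90% or more in 639. The site nearest inside this limit, on chromosome 5 from 12511225 to 12512007 in husk, had 232 bp of extra length on one side and 58 bp on the other, or 80%. The nearest outside, on chromosome 3 from 205152657 to 205154351, had 563 and 141 bp, or 79.97%. The smallest and largest ratios inside the limits were 1.5 and 2.499, and the nearest outside were 1.4995 and 2.502. The longest V2-IST region inside was 1498 bp and the shortest beyond the limit 1504 bp. The shortest husk region inside was 603 bp and the longest below the limit 598 bp.

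The share of one-sided extension is given by the total extra husk length as a description, since the rule used both. With a total extra length of 200 to under 300 bp, 16.2% of the pairs were extended to one side (134 of 829, 95% Wilson interval 13.8 to 18.8%). With 500 to under 600 bp the share was 44.0% (320 of 728, 40.4 to 47.6%), and with 800 to under 1000 bp it was 59.8% (199 of 333, 54.4 to 64.9%). With 1500 bp or more it was 66.7% (38 of 57, 53.7 to 77.5%). These intervals, and all others given here, cover counting error over sites, which are not independent replicates. The replicates of a tissue were merged into its list, so that their spread was not measurable and no test over samples was possible. The husk list combines 3 replicates and the V2-IST list 2, which the paper names as part of the reason for longer husk regions. In the paper, each husk replicate also had more called peaks than each V2-IST replicate, and read numbers differed among the libraries. At the sites described here, effects of replicate number, read depth and peak calling on region length cannot be told apart from the tissue.

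**Figure D3:**
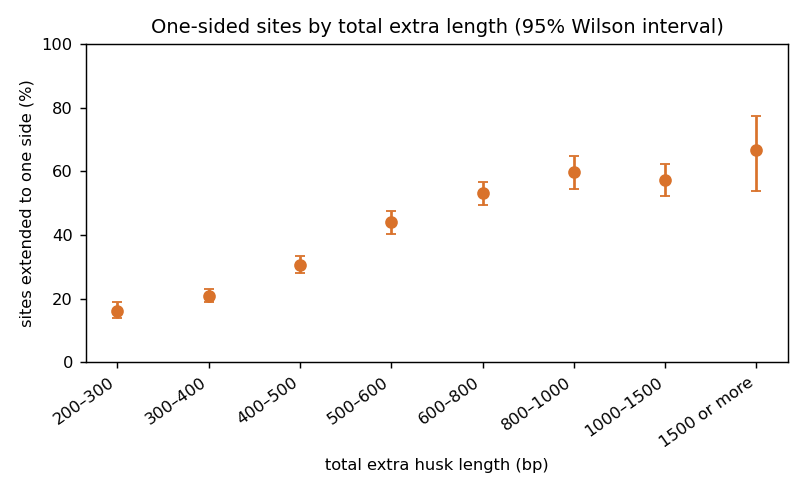
Share of pairs extended to one side (%, points, with 95% Wilson intervals as bars) by the total extra husk length in bp. The share is 16.2% at 200 to under 300 bp and between 53.0% and 66.7% in the bins from 600 bp upward.

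The direction of the extension, which the rule did not use, was balanced on the chromosomes. The husk region reached toward higher coordinates at 1013 sites (50.5%, 95% interval 48.4 to 52.7%) and toward lower coordinates at 991. Median extensions were 473 bp and 483 bp in these 2 directions. Per chromosome, the share toward higher coordinates lay between 46.5% on chromosome 9 (72 of 155, 38.8 to 54.3%) and 57.4% on chromosome 2 (140 of 244, 51.1 to 63.4%). The interval included 50% on every chromosome except chromosome 2. Chromosome 2 is an extreme of 10 chromosomes, picked by its value, and its interval was not adjusted for that choice.

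The share of one-to-one pairs extended to one side varied among chromosomes. It lay between 10.9% on chromosome 4 (180 of 1645, 9.52 to 12.5%) and 15.1% on chromosome 8 (214 of 1420, 13.3 to 17.0%). These 2 intervals do not overlap, and both leave out the share of 12.6% over all chromosomes, which the intervals of all other chromosomes include. They belong to the extremes of 10 chromosomes, picked by their values, and were not adjusted for that choice. The median extension lay between 454 bp on chromosome 4 and 506.5 bp on chromosome 3. With each chromosome cut into 10 bins of equal length, the share of sites among the pairs ranged from 11.6% in bin 6 to 13.3% in bin 9. The first and last bin together held 31.3% of the sites and 31.7% of all one-to-one pairs. The 1 Mb window with the most sites, on chromosome 9 from 154000001 to 155000000, held 7 of them among 32 pairs. Extension was toward higher coordinates at 2 and toward lower coordinates at 5 of these 7 sites, by 218 to 674 bp.

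The longest extension, 2059 bp, was found on chromosome 6, where the husk region ran from 105522642 to 105526289 and the V2-IST region from 105524701 to 105526173, with 116 bp of extra length on the retained side. On chromosome 10, a husk region from 143599087 to 143602614 reached 1905 bp below a V2-IST region from 143600992 to 143602450. On chromosome 6, a husk region from 26712872 to 26716253 reached 1899 bp above a V2-IST region from 26712875 to 26714354, and the retained ends differed by 3 bp. Extensions of 1840 bp toward higher coordinates on chromosome 6 (husk 153040302 to 153043690, V2-IST 153040357 to 153041850) and of 1777 bp on chromosome 2 (husk 44622356 to 44625411, V2-IST 44622364 to 44623634) followed. All 5 V2-IST regions measured 1271 bp or more. The limit on the ratio allows extensions of this size only at long V2-IST regions.

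Identical retained ends with the longest extension were listed on chromosome 1. A husk region from 303931716 to 303934009 and a V2-IST region from 303931716 to 303932830 shared their lower end, and husk reached 1179 bp further at the upper one. Another such pair, husk 78379597 to 78380857 and V2-IST 78379597 to 78380267, differed by 590 bp at the upper end.

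Whether the extension followed the direction of transcription was examined with gene starts and strands on AGPv4 taken from the study's supplementary list of genes linked to enhancer candidates. This is a selected set, which by its construction is weighted to genes expressed more in husk, and other genes were not analysed here. Exactly 1 listed gene start lay in the husk region at 43 of the 2004 sites. An extension is called downstream where the extended end was the one in the direction of transcription, and upstream otherwise. The place of the added husk sequence relative to the gene start was not used. The extension was downstream at 34 of these 43 sites (79.1%, 95% interval 64.8 to 88.6%) and upstream at 9. In the other one-to-one pairs with the V2-IST region inside the husk region, the larger extra length was at the downstream end at 136 of 227 gene starts, or 59.9%. The difference was 19.2 percentage points (95% Newcombe interval 3.61 to 30.7). Set against the sites extended to both sides alone, where it was 37 of 58 (63.8%), the difference of 15.3 percentage points had an interval of -2.84 to 31.3, which includes 0.

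The downstream share was similar on both strands, 15 of 19 at genes on the plus strand and 19 of 24 on the minus strand. It was 14 of 15 at sites with an extension under 500 bp, against 74 of 101 in the other pairs with a larger side of that length. At sites with a longer extension it was 20 of 28, against 62 of 126. Among the genes linked by the study to husk-specific candidates it was 19 of 26, against 15 of 32 at sites extended to both sides. Among those linked to candidates of both tissues it was 12 of 14, against 18 of 20. All 3 sites at genes linked to V2-IST-specific candidates were extended downstream, against 4 of 6. Differences between these groups of genes were not tested.

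Positions relative to the gene start are given as a description, since each V2-IST region lies inside its husk region and husk coverage cannot be the lower one at any distance. By their choice all 43 husk regions held the gene start, while 20 of the V2-IST regions did (46.5%). In another 15 the start lay on the retained side of the V2-IST region and in 8 in the sequence added on the extended side. At 500 bp downstream of the start, 41 husk and 37 V2-IST regions were present. At 1000 bp downstream, 33 husk regions (76.7%) and 13 V2-IST regions (30.2%) were present, and at 1000 bp upstream 6 and 2. The median husk region ran from -106 bp to 1163 bp relative to the gene start, and the V2-IST region from -1 bp to 719 bp.

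**Figure D4:**
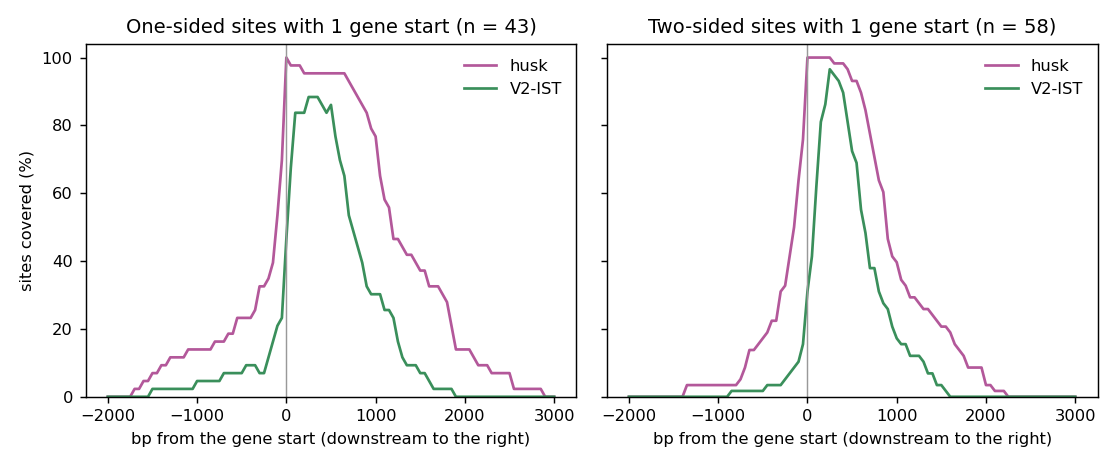
Share of sites (%) covered by a husk or V2-IST region, by distance in bp from the gene start, with transcription to the right, for the 43 sites extended to one side and the 58 extended to both sides that hold exactly 1 listed gene start. At 1000 bp downstream, husk regions covered 76.7% and V2-IST regions 30.2% of the sites extended to one side, against 39.7% and 17.2% of the sites extended to both sides. Over all sites, those extended to both sides had shorter regions in both tissues.

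At the 34 sites with a downstream extension, the upstream ends lay close to the gene start in both tissues, at a median of -76.5 bp in husk and -6 bp in V2-IST. The downstream ends lay at 1174.5 bp in husk (quartiles 1022.5 and 1833 bp) and at 672 bp in V2-IST (quartiles 547.5 and 1045 bp). At 21 of the 34 sites the added sequence lay wholly within the annotated gene. At the rest of the 34, the part of it within the gene ranged from 0% at Zm00001d002074 and Zm00001d030617 to 93.1% at Zm00001d024783. At the sites with an upstream extension, this part ranged from 0% to 66.4% at Zm00001d026665. At the 9 sites with an upstream extension, the upstream ends had medians of -836 bp in husk and 48 bp in V2-IST, and the downstream ends of 1031 bp in husk and 887 bp in V2-IST. In 6 of these 9, the V2-IST region began downstream of the gene start and the start lay in the added husk sequence. Both groups of sites were defined by the side of the extension, so that these positions are a description.

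The longest downstream extensions were 1586 bp at Zm00001d026668 on chromosome 10, where husk ran from -7 to 2886 bp and V2-IST from 81 to 1300 bp relative to the gene start, and 1421 bp at Zm00001d041397 on chromosome 3, where husk ran from -36 to 2503 bp and V2-IST from 37 to 1082 bp. At both genes the added sequence lay wholly inside the gene. At Zm00001d024783 on chromosome 10, husk ran from -249 to 2128 bp and V2-IST from -195 to 803 bp, and 93.1% of the added 1325 bp lay inside the gene. Zm00001d004768 on chromosome 2 differed from these, since its V2-IST region lay upstream of the gene start, from -1521 to -350 bp, and the husk region, from -1714 to 1017 bp, added the start itself. The sources used here give these identifiers no gene names.

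Upstream extensions were longest at Zm00001d035455, the site on chromosome 6 named above whose retained ends differed by 3 bp. There, husk ran from -1518 to 1863 bp and V2-IST from 381 to 1860 bp. At Zm00001d013834 on chromosome 5, husk ran from -1317 to 1816 bp and V2-IST from 20 to 1498 bp. At Zm00001d028330 on chromosome 1, husk ran from -1432 to 1031 bp and V2-IST from -379 to 777 bp. At Zm00001d009034 on chromosome 8, husk ran from -1630 to 155 bp and V2-IST from -731 to 122 bp. Genes outside the list may start in the sequence upstream of these 4 genes, which was not tested.

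Other husk regions lay closer on the extended side than on the retained side. The gap from the end of the husk region to the next husk region had a median of 35594.5 bp on the extended side (95% interval 31963 to 40709 bp) and of 54842.5 bp on the retained side (50733 to 58920 bp). The next husk region was the nearer one on the extended side at 1156 of the 2004 sites (57.7%, 55.5 to 59.8%). The larger side of the sites extended to both sides had the nearer neighbour at 56.1% (54.5 to 57.6%), so that the same order was present there. Within 5 kb, another husk region was listed on the extended side at 332 sites (16.6%) and on the retained side at 209 (10.4%). The paired difference was 6.14 percentage points (4.06 to 8.22). These gaps start at the husk end, which by the choice of the sites lies further out on the extended side. Counted from the ends of the V2-IST region, the difference was 4.29 percentage points (2.28 to 6.31). From the husk ends, the paired difference within 2 kb was 0.898 percentage points, with an interval of -0.307 to 2.10 that includes 0. Within 10 kb it was 9.18 percentage points (6.60 to 11.8), against 6.14 (4.34 to 7.95) at sites extended to both sides.

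Sites extended to both sides had a neighbour within 5 kb on the larger side at 14.0% and on the smaller side at 11.6%, a paired difference of 2.38 percentage points (0.930 to 3.84). The share on the extended side was thus 2.57 percentage points higher at sites extended to one side (0.644 to 4.57), while that on the retained side differed by -1.18 percentage points (-2.82 to 0.537). By the rule, the husk end on that extended side lay further out, by a median of 478 bp against 264 bp, which brings it nearer to any neighbour. The 2 groups were not compared from the V2-IST ends. A difference between the sides was also present in the V2-IST list. A further V2-IST region lay within 5 kb of the husk region on the extended side at 146 sites (7.29%) and on the retained side at 96 (4.79%), a paired difference of 2.495 percentage points (1.02 to 3.97). At sites extended to both sides this difference was 0.622 percentage points, with an interval of -0.453 to 1.70. The share on the extended side alone differed between sites extended to one and to both sides by 0.5998 percentage points (-0.746 to 2.03). On the retained side it differed by -1.27 percentage points (-2.44 to -0.0266). By the rule, the husk end on that side lay less far out at sites extended to one side, by a median of 67 bp against 132 bp. Within 2 kb, the paired difference in V2-IST regions was 0.0499 percentage points (-0.591 to 0.691), against -0.0518 (-0.512 to 0.408) at sites extended to both sides. Within 10 kb, the paired difference in V2-IST regions was 5.44 percentage points (3.32 to 7.56) at sites extended to one side and 3.27 (1.73 to 4.80) at sites extended to both sides. Of the husk neighbours within 5 kb, 179 of 332 on the extended side and 110 of 209 on the retained side had no V2-IST counterpart (53.9% and 52.6%). At sites extended to both sides these were 265 of 540 on the larger side and 211 of 448 on the smaller side (49.1% and 47.1%), and among all husk regions 11952 of 28004 (42.7%). At 1503 of the 2004 sites, no other husk region lay within 5 kb on either side.

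**Figure D5:**
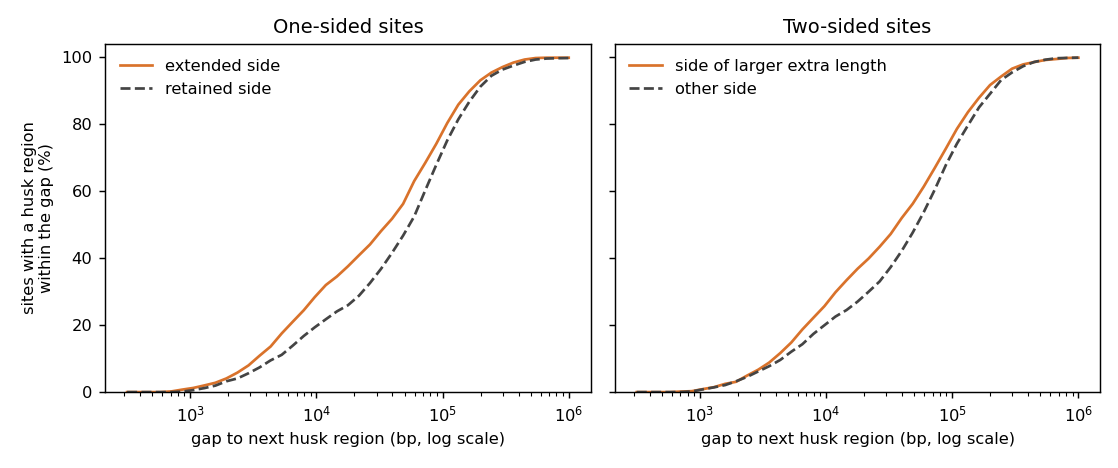
Share of sites (%) that have another husk region within a given gap (bp, log scale), measured from the end of the husk region on the extended side and on the retained side. Within 5 kb the shares are 16.6% and 10.4% for the 2004 sites extended to one side, and 14.0% and 11.6% for the 3859 sites extended to both sides.

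Enhancer candidates of the study, which required H3K9ac in the same tissue and lay outside genes and promoters, overlapped the husk region at 41 sites (2.05%, 95% interval 1.51 to 2.76%), against 2.85% of all one-to-one pairs and 2.54% of the sites extended to both sides. The candidate had been listed for both tissues at 19 of the 41 sites, for husk alone at 6 and for V2-IST alone at 16. It touched the added husk sequence at all 41 sites and the V2-IST region at 37. A candidate is a whole region of low DNA methylation, selected for overlap with H3K9ac and accessible chromatin, so that such contact is a description. The same contact at sites extended to both sides is not given here. The extension ran toward higher coordinates at 17 of the 41 sites, and its median was 505 bp (quartiles 343 and 761 bp). The longest extensions among them, picked after their values were seen, were 1648 bp at V182 on chromosome 2 (husk 5440780 to 5443998, V2-IST 5440969 to 5442350), 1560 bp at V15, which is H1201 in husk, on chromosome 6 (husk 162466657 to 162469732, V2-IST 162466765 to 162468172) and 1559 bp at V283, which is H374 in husk, on chromosome 6 (husk 23012913 to 23015879, V2-IST 23014472 to 23015833).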

How the data were processed

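H3K9ac ChIP-seq covered 3 husk and 2 V2-IST replicates of B73, with input as control. The authors used BWA for alignment to AGPv4 and samtools to discard alignments of mapping quality below 20, called peaks per replicate with MACS2 (q-value cutoff 0.001) and kept and merged those overlapping by at least 70% between replicates. Tool versions are not given in the sources used here. The deposited values are region starts and ends in bp, printed here counted from 1. The lists carry no depth, and 0 columns were left without a sample.

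Pairs, members and distances were computed with Python 3.11.15, numpy 2.4.6 and scipy 1.17.1, and figures drawn with matplotlib 3.10.9. The 15878 one-to-one pairs were also counted with bedtools 2.31.1, which gave the same number, and 400 planted sites among 1000 simulated pairs were recovered with their side (100%). Shares have 95% Wilson intervals, differences of shares Newcombe intervals, paired differences normal intervals and medians order-statistic intervals. No p-value was computed. At 11 sites with equal extra length on both sides, the lower side counted as the larger for the distances to neighbours. Sites with equal sides were left out at gene starts and among adjacent sites. Positions of 823 genes and of candidates came from the study's supplementary tables, and no expression value or rank was used.

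Loci named in the text are the 5 longest extensions, the 2 longest with identical retained ends, the densest 1 Mb window, the sites nearest to each limit, and the 4 genes with the longest extension in each orientation. The 3 candidates and the adjacent sites named on chromosomes 3 and 5 were picked after their values were seen. None of the candidates the study names in its text was a member. Members, lists and rules were chosen with earlier results of these data known. No sequence is printed, since no AGPv4 genome was used here.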

Additional observations from a re-analysis of the deposited data

How the results depend on the processing

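With at least 70% or 90% of the extra length required on one side, 3517 and 639 sites were chosen in place of 2004, and with wider limits on the length ratio, up to under 3, 3127. The median extension was 393 bp and 606 bp under these limits on sidedness, 461 bp with the wider ratio and 573 bp with V2-IST regions of at least 500 bp, and the mean was 555 bp. With 90% on one side, 27.9% of the sites lay in the first and last of 10 equal bins of the chromosomes, and no 2 sites were adjacent within 5 kb. The difference in neighbouring husk regions between the extended and the retained side was 0.898 percentage points within 2 kb and 9.18 within 10 kb, where sites extended to both sides had 6.14. Counted from the V2-IST ends within 5 kb, this difference was 4.29 percentage points. Joining regions closer than 200 bp and requiring an overlap of 200 bp left all 18 values equal to the reported ones and say nothing about stability. Of the 42 values under the other alternatives, 31 stayed within the interval of the reported value or, for the number of sites, within 1.5 times of it. Among them, the share extended toward higher coordinates was 49.9% with 90% on one side, and the downstream share at gene starts ranged from 74.2% (70% on one side) to 85.0% (gene start inside the V2-IST region, n = 20). Alternatives for the place of the gene start, the position on chromosomes and the candidates were added after seeing the data. Differences of a few percentage points over 43 gene starts were not detectable. No replicate could be left out, and no paired analysis was possible because each list combines the replicates of its tissue.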

Other observations

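In 15 cases, 2 sites extended to one side followed each other in the husk list with a gap of at most 5 kb. Their extensions pointed the same way in 9 cases, away from each other in 3 and toward each other in 3, and the share with the same direction had a 95% Wilson interval of 35.7 to 80.2%. Among all one-to-one pairs with the V2-IST region inside the husk region, taken by their larger side, 433 of 892 such neighbours pointed the same way (48.5%), 185 away from each other and 274 toward each other. The loci named here were picked after their values were seen. The narrowest gap, 802 bp, lay on chromosome 3 between a husk region from 179370748 to 179372765, extended by 941 bp, and one from 179373568 to 179374605, extended by 548 bp in the same direction. On chromosome 5, 3 consecutive sites from 949741 to 959357 pointed up, down and up, with extensions of 412, 413 and 547 bp.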
